A study of Homo sapiens with 6 samples.

Results

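The genes described here are 8 members of the EGFR family signalling system in A549 cells: the receptors EGFR, ERBB2 and ERBB3 and the ligands AREG, EREG, HBEGF, TGFA and NRG1. Entries of the deposited transcript table were taken where their RefSeq accession belongs to 1 of these symbols, and the counts of a gene's transcripts were summed, which gave 8 of 28452 genes. All 8 passed the filter on low counts that left 17115 genes for testing. A549 is an established human lung adenocarcinoma line. The cells had been infected with lentivirus carrying a control or an shCBX8 short hairpin RNA, directed at the Polycomb gene CBX8, and kept as stable lines, so that control and knockdown cells had both been through infection. By their titles the 6 libraries form 3 groups of 2, named control, shCBX8-1 and shCBX8-2. What the number after shCBX8 stands for is not stated, nor is it stated that libraries of a group are separate cultures, so the p-values capture only how far these samples scatter, and that scatter may be technical.

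EGFR, ERBB2 and ERBB3 are receptor tyrosine kinases of the cell surface that signal as pairs. AREG, TGFA, EREG and HBEGF are made as membrane-anchored precursors, are released by metalloproteases such as ADAM17, and bind EGFR; EREG and HBEGF also bind ERBB4. NRG1 binds ERBB3 and ERBB4, ERBB2 has no known ligand and serves as the preferred partner of the others, and ERBB3 has little kinase activity of its own. Downstream, the RAS-ERK and PI3K-AKT routes carry the signal, and EGFR is a known drug target in lung adenocarcinoma. CBX8 is a chromobox subunit of Polycomb repressive complex 1, which takes part in gene silencing.

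Levels are given as counts scaled to a common library total (CPM, after TMM scaling). Total estimated counts were 64197784 to 67169537 per library. The targeted gene, CBX8, measured 24.6 and 26.3 CPM in the controls, and was lower in both shCBX8-1 libraries (7.79 and 7.70 CPM) and both of shCBX8-2 (17.7 and 13.8 CPM), as their labels say. The shCBX8-2 libraries stood farther apart than those of the other groups, with a median absolute log2 difference between libraries of 0.240, against 0.129 (control) and 0.128 (shCBX8-1). The keratins KRT8, KRT18 and KRT7 were abundant and made up nearly all of the summed level of 7 epithelial markers, which was 24531 to 25410 CPM in the controls, 22046 to 22066 CPM in the shCBX8-1 libraries and 27937 to 31554 CPM in those of shCBX8-2. The other epithelial markers were far lower and went different ways in knockdown: CDH1 fell by 0.55 log2 (adjusted p = 0.0312), CLDN4 rose by 0.60 (0.048), KRT19, at 0.359 to 4.11 CPM, rose by 1.99 (0.0141), and EPCAM was 0.73 (0.0554). Without control replicate 1 or 2 or shCBX8-1 replicate 1 or 2 these calls ended (0.161, 0.291, 0.116 and 0.135 for CDH1, 0.25, 0.294, 0.148 and 0.14 for CLDN4, and 0.139, 0.173, 0.0895 and 0.0865 for KRT19). By group in the edgeR test, CDH1 was -0.92 in shCBX8-1 (adjusted p = 0.0243) and -0.18 in shCBX8-2 (0.38). KRT19 was 3.39 in shCBX8-1 (0.00789) and 0.59 in shCBX8-2 (0.259). For both the shCBX8 groups differed, by 0.74 (0.0183) for CDH1 and -2.80 (0.00447) for KRT19. CLDN4 and EPCAM passed in shCBX8-2 (0.73, 0.0271 and 1.17, 0.013) and not in shCBX8-1 (0.48, 0.173 and 0.29, 0.524). The 5 surfactant and lung lineage markers were nearly absent, at 0.715 to 3.60 CPM summed. Among the leukocyte markers CD3E was at 0 in all libraries, and the summed level was 11.8 to 13.5, 22.1 to 22.6 and 16.9 to 20.1 CPM in the same order. The 6 fibroblast markers, with DCN at 0, summed to 12 to 14.5, 8.46 to 9.17 and 5.55 to 6.19 CPM in the same order, and the 4 endothelial markers, with KDR at 0, to 1.88 to 2.74, 2.73 to 4.12 and 4.16 to 5.72 CPM. The part of these marker differences in the results below was not tested.

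Promoter sequences are shown for HBEGF and TGFA, the members that rose in knockdown against control. They come from RefSeq (GRCh38.p14), both genes lie on the minus strand, and each window is the 250 bases before the gene's start, at chr5:140346604-140346853 for HBEGF and chr2:70553827-70554076 for TGFA. The table lists 2 starts for TGFA, of which the one at the outer end of the gene is shown. The window before the other start, at chr2:70553447-70553696 with a GC content of 64%, held no match to any motif searched for. Capitals mark matches, on either strand, to the Sp1 motif GGGCGG or to TGACG, which is part of the CRE motif.
HBEGF: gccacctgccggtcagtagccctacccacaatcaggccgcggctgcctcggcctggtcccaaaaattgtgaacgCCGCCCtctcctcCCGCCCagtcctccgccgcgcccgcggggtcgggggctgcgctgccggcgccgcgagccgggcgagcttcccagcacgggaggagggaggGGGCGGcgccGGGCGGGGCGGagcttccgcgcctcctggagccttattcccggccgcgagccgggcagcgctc
TGFA: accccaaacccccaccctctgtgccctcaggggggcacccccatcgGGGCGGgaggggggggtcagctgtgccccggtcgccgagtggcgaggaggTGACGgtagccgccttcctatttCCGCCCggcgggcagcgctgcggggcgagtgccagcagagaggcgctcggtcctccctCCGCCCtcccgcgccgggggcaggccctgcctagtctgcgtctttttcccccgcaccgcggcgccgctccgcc
The HBEGF window held 5 Sp1 matches, starting at -176, -163, -73, -63 and -58 from the start site, of which the last pair overlap. TGFA held 3 Sp1 matches at -204, -131 and -73 and 1 TGACG match at -154. GC content was 76.4% in the HBEGF window and 75.6% in that of TGFA. Of 35116 promoter windows of this length, 42.6% held GGGCGG and 21.2% held TGACG, so neither match is rare. The AP-1 motif TGANTCA (in 6.57% of windows), the whole CRE motif TGACGTCA (in 1.65%, and containing TGACG) and the E-box CACGTG (in 6.34%) had no match in either window, which says only that these letters are not there.

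**Figure D1:**
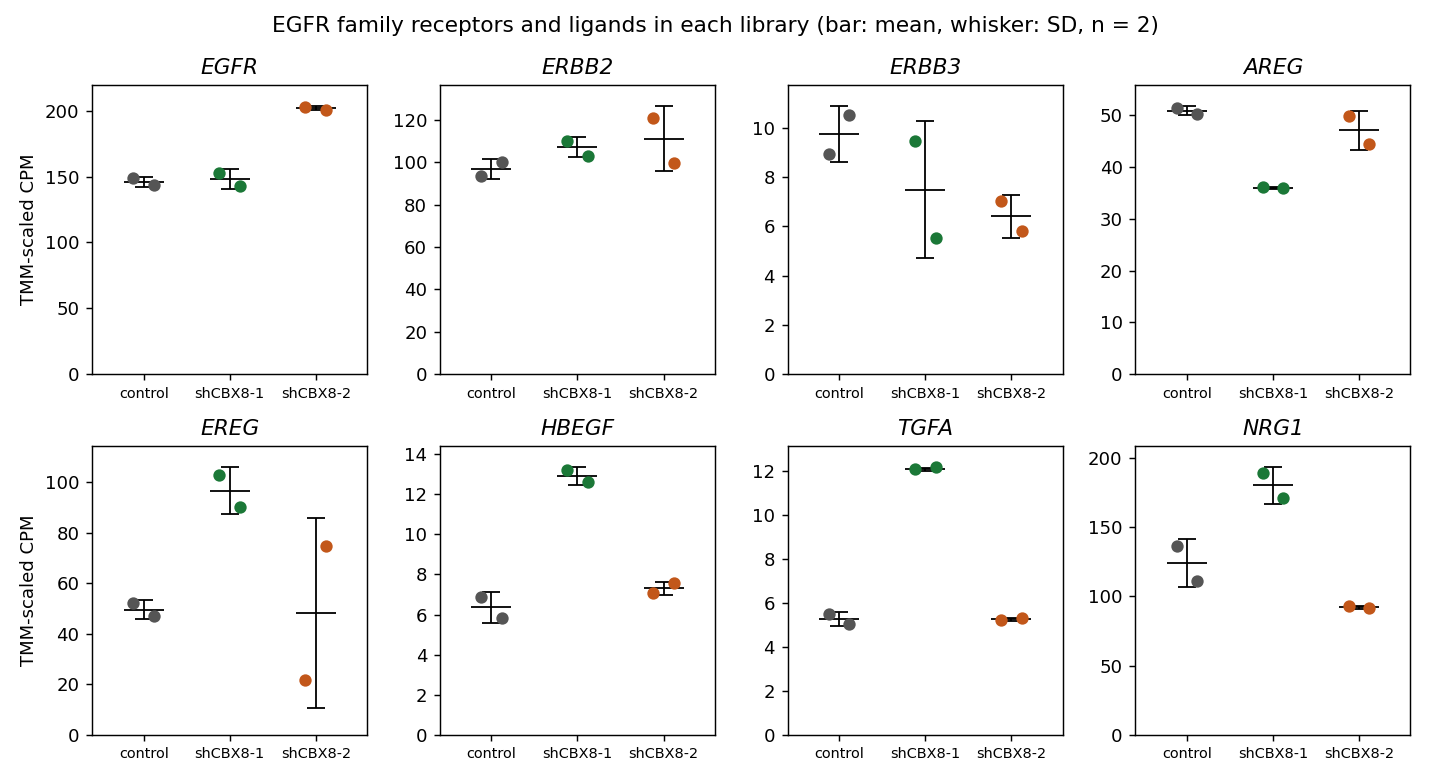
Level of each of the 8 genes in every library, in CPM after TMM scaling on a linear axis from 0, with points for libraries, bars for group means and error bars for the SD (n = 2 per group). HBEGF and TGFA stand highest in shCBX8-1, at 203% and 229% of the control mean, EGFR is highest in shCBX8-2, and the EREG libraries of shCBX8-2 lie far apart.

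In the mean of both shCBX8 groups against control, HBEGF and TGFA rose and the other members did not pass the test. That is 2 of 8 higher and 0 of 8 lower, beside 3.31% of all 17115 genes called higher and 3.48% called lower. In shCBX8-1 against control the same 2 members were higher and 0 lower (1.34% and 1.13% of all genes). In shCBX8-2 against control 1 member, EGFR, was higher and 0 lower (6.03% and 6.64% of all genes). The test of shCBX8-2 against shCBX8-1 called EGFR higher and HBEGF, TGFA and NRG1 lower, 1 and 3 of 8 (4.05% and 5.77% of all genes). At an unadjusted p under 0.05 the same edgeR test had 3 members higher and 1 lower in knockdown, 3 and 1 in shCBX8-1, and 1 and 1 in shCBX8-2. Of all 17115 genes, 4049, 2951 and 5000 had such a p in these comparisons, both directions together. The DESeq2 Wald test called these same numbers of members after adjustment. Over all genes it called 7.81% higher and 6.45% lower in knockdown, 4.88% and 3.75% in shCBX8-1, and 10.7% and 10.1% in shCBX8-2. The median log2 fold change of the 8 was 0.20 in knockdown, 0.34 in shCBX8-1, -0.02 in shCBX8-2 and -0.52 in shCBX8-2 against shCBX8-1, beside -0.04, -0.01, -0.04 and -0.01 over all genes tested. Where a library is left out in what follows, the other of its group is assumed to vary like the remaining groups. The number of genes of the whole series that pass also changes. It was lower in all 4 comparisons without a control or shCBX8-1 library, and higher without a shCBX8-2 library. A call that ends or appears in such a fit is therefore not by itself a trait of the gene. These comparisons share libraries, so their values are set side by side and are not independent of each other. In these bulk libraries fewer cells that express a gene and less RNA per cell cannot be told apart.

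**Figure D2:**
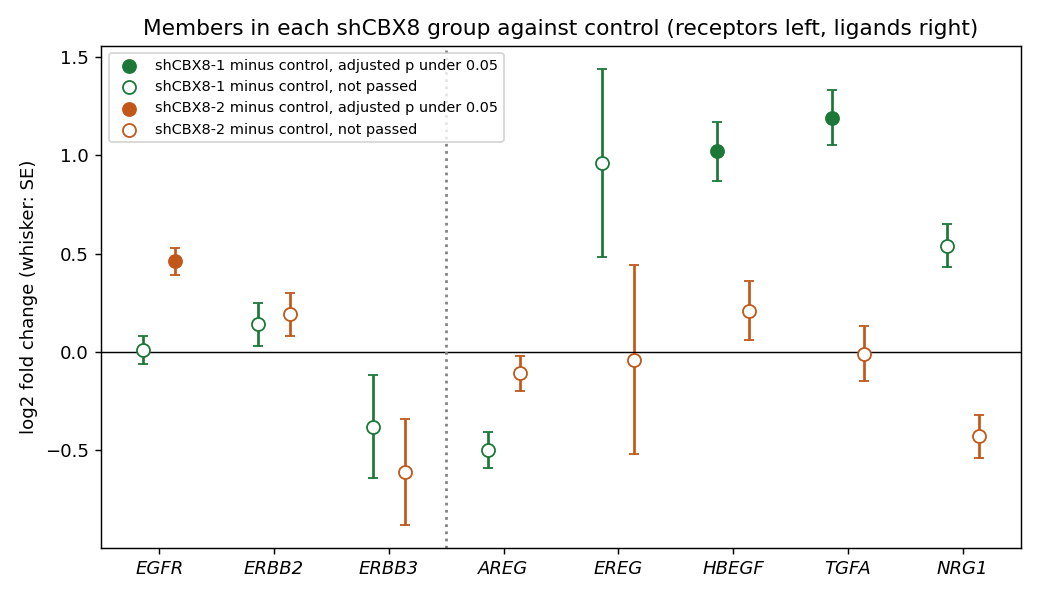
Log2 fold change against control of the 8 genes in shCBX8-1 and in shCBX8-2, with whiskers for the standard error and filled points for adjusted p under 0.05 (edgeR quasi-likelihood test). The filled points are HBEGF and TGFA in shCBX8-1, at 1.02 and 1.19, and EGFR in shCBX8-2, at 0.46.

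Among the receptors, EGFR (gene 1956, chromosome 7, 55019017 to 55211628) was higher in shCBX8-2 than in the other groups. The controls measured 149 and 144 CPM, the shCBX8-1 libraries 153 and 143 CPM, and the shCBX8-2 libraries 203 and 201 CPM. Both shCBX8-2 libraries were above the other 4, and the control and shCBX8-1 libraries overlapped. EGFR rose by 0.46 ± 0.07 log2 in shCBX8-2 (SE, adjusted p = 0.0105), to 138% of the control mean of 146 ± 3.87 CPM (SD, n = 2). In shCBX8-1 the log2 difference was 0.01 ± 0.07 (adjusted p = 0.958), and the shCBX8 groups differed by 0.45 ± 0.07 (adjusted p = 0.0144). The mean of both groups against control was 0.24 ± 0.06 and did not pass (adjusted p = 0.0743). It passed without shCBX8-2 replicate 1 or 2, where more genes of the whole series passed as well. The call in shCBX8-2 ended without control replicate 1 (adjusted p = 0.0827) or 2 (0.110), and that between the shCBX8 groups ended without control replicate 1 (0.0566) or 2 (0.0576), without shCBX8-1 replicate 1 (0.0954) or 2 (0.135), or with only those 4 libraries fitted (0.0519).

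ERBB2 (gene 2064, chromosome 17, 39688094 to 39728658), the receptor without a known ligand, measured 93.3 and 100 CPM in control, 110 and 103 CPM in shCBX8-1, and 121 and 99.8 CPM in shCBX8-2. The shCBX8-1 libraries were above both controls, while 1 of the shCBX8-2 libraries was level with control. Its log2 difference was 0.17 ± 0.10 in knockdown (adjusted p = 0.348), 0.14 ± 0.11 in shCBX8-1 (0.594) and 0.19 ± 0.11 in shCBX8-2 (0.292). Without shCBX8-2 replicate 2 the values were 0.23 in knockdown (adjusted p = 0.0275) and 0.33 in shCBX8-2 (0.0155), where the lone library is assumed to vary like the other groups and 13.7% of all genes were called higher in shCBX8-2. ERBB3 (gene 2065, chromosome 12, 56080108 to 56103505), the NRG1 receptor, was far less abundant, with 8.94 and 10.5 CPM in control, 9.45 and 5.53 CPM in shCBX8-1, and 7.01 and 5.79 CPM in shCBX8-2. Both shCBX8-2 libraries lay below control, and of the shCBX8-1 libraries 1 lay within the control range and 1 below it. The ERBB3 differences of -0.49 ± 0.23 in knockdown (adjusted p = 0.246), -0.38 ± 0.26 in shCBX8-1 (0.543) and -0.61 ± 0.27 in shCBX8-2 (0.186) did not pass, and its shCBX8-1 libraries differed from each other by 0.77 log2.

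Of the ligands, TGFA (gene 7039, chromosome 2, 70447284 to 70553826), a high-affinity EGFR ligand, had the largest log2 difference of the 8 in shCBX8-1. Its level was 5.52 and 5.07 CPM in control, 12.1 and 12.2 CPM in shCBX8-1, and 5.22 and 5.33 CPM in shCBX8-2. The shCBX8-1 libraries were well above all others, and those of shCBX8-2 fell inside the control range. TGFA rose by 1.19 ± 0.14 log2 in shCBX8-1 (adjusted p = 0.016), a 2.29-fold difference, against -0.01 ± 0.14 in shCBX8-2 (adjusted p = 0.987). The shCBX8 groups differed by -1.20 ± 0.14 (adjusted p = 0.00587), and the mean of both was 0.59 ± 0.13 above control (adjusted p = 0.0402). The sign of the TGFA value in shCBX8-2 turned with DESeq2 size factors (0.0131).

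HBEGF (gene 1839, chromosome 5, 140332843 to 140346603), a heparin-binding ligand of EGFR, showed much the same order of groups. It measured 6.89 and 5.81 CPM in control, 13.2 and 12.6 CPM in shCBX8-1, and 7.09 and 7.55 CPM in shCBX8-2. The shCBX8-1 libraries stood above all others, and the shCBX8-2 libraries lay just above both controls. HBEGF rose by 1.02 ± 0.15 log2 in shCBX8-1 (adjusted p = 0.0267), or 2.03-fold, and measured 0.21 ± 0.15 in shCBX8-2 (adjusted p = 0.412). The difference between the shCBX8 groups was -0.82 ± 0.15 (adjusted p = 0.0215), and their mean was 0.61 ± 0.13 above control (adjusted p = 0.0431).

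The knockdown calls of HBEGF and TGFA kept their direction in all alternatives run on gene sums, but not their side of the threshold. Fits without a control or shCBX8-1 library called few genes of the whole series in knockdown or in shCBX8-1. Calls that ended there are therefore not particular to these members. Without control replicate 1 or 2, or shCBX8-1 replicate 1 or 2, the knockdown adjusted p was 0.175, 0.333, 0.155 and 0.143 for HBEGF and 0.204, 0.311, 0.139 and 0.142 for TGFA. Without the same libraries the shCBX8-1 values were 0.161, 0.250, 0.247 and 0.207 for HBEGF and 0.142, 0.213, 0.190 and 0.181 for TGFA. Between the shCBX8 groups the HBEGF call ended without control replicate 1 (0.0546) or 2 (0.0536), and without shCBX8-1 replicate 1 (0.155) or 2 (0.131). With only the 4 libraries of those groups fitted it ended as well (0.0502). The TGFA call there ended without shCBX8-1 replicate 1 (0.0744) or 2 (0.0715). With the replicate number as a block, the knockdown calls ended for HBEGF (0.0719) and TGFA (0.0729) and the shCBX8-1 call ended for HBEGF (0.0521). They also ended in knockdown without the filter on low counts (0.0597 and 0.0514), with the 4 knockdown libraries as 1 group (0.415 and 0.529), as the most abundant transcript (0.576 and 0.97) and, for HBEGF, without repeated accessions (0.051). With the 4 knockdown libraries as 1 group only 27 of all 17115 genes were called, and as single transcripts 0 of 40859 in knockdown.

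AREG (amphiregulin, gene 374, chromosome 4, 74445136 to 74455005), an EGFR ligand of lower affinity, was near the threshold. It measured 51.5 and 50.3 CPM in control, 36.1 and 35.9 CPM in shCBX8-1, and 49.8 and 44.4 CPM in shCBX8-2. All 4 knockdown libraries were below both controls, those of shCBX8-1 by the most. The log2 differences were -0.30 ± 0.08 in knockdown (adjusted p = 0.0757), -0.50 ± 0.09 in shCBX8-1 (0.0509) and -0.11 ± 0.09 in shCBX8-2 (0.486), and 0.39 ± 0.09 between the shCBX8 groups (0.0505). Without shCBX8-2 replicate 1 or 2, AREG passed in knockdown, in shCBX8-1 and between the groups. More genes of the whole series passed in those fits as well, so these passes are not particular to AREG. AREG was also called lower in shCBX8-1 by the DESeq2 Wald test, with only control and shCBX8-1 fitted, and with an offset for GC content chosen later. The same held with a robust spread estimate and without repeated accessions. Those fits called 1.59% and 0.822% of all genes lower there, beside 1.13% in the main fit. It was not called there with DESeq2 size factors, without the filter on low counts or with a replicate block.

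EREG (epiregulin, gene 2069, chromosome 4, 74365145 to 74388749) lies 56386 bases from AREG and behaved differently between libraries. It measured 52.3 and 46.9 CPM in control, 103 and 90.1 CPM in shCBX8-1, and 21.6 and 74.8 CPM in shCBX8-2. The shCBX8-1 libraries were above control, while 1 shCBX8-2 library was below control and the other above it. None of the EREG differences passed, at 0.46 ± 0.42 in knockdown (adjusted p = 0.574), 0.96 ± 0.48 in shCBX8-1 (0.375), -0.04 ± 0.48 in shCBX8-2 (0.969) and -1.01 ± 0.48 between the shCBX8 groups (0.242). The control mean was 49.6 ± 3.81 CPM, that of shCBX8-1 was 96.7 ± 9.35 CPM and that of shCBX8-2 was 48.2 ± 37.6 CPM (SD, n = 2). Without shCBX8-2 replicate 1 the shCBX8-2 value was 0.61 (adjusted p = 0.00497), and without replicate 2 it was -1.20 (0.00014), so the sign depended on which library was kept. In such fits the lone shCBX8-2 library is assumed to vary like the other groups, although the pair differed widely, so these p-values are no measure of the spread in shCBX8-2. In knockdown, EREG passed without shCBX8-2 replicate 1 (0.79, adjusted p = 0.000661) and was -0.12 without replicate 2 (0.333). In shCBX8-1 it passed without shCBX8-2 replicate 1 (0.97, 0.000409) or 2 (0.96, 0.000344) and with only control and shCBX8-1 fitted (0.96, 0.000324). Between the shCBX8 groups the value without shCBX8-2 replicate 2 was -2.16 (adjusted p = 1.17e-05), which rests on the library at 21.6 CPM alone and on the spread of the other groups.

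The shCBX8-2 libraries were 3.46-fold apart in EREG, a log2 difference of -1.79 (replicate 1 minus 2), and 865 of 17115 genes (5.05%) were as far apart. Among the other 7 members this difference ran from -0.09 to 0.28. EREG has the lowest GC content of the 8, at 36.1% of its transcript, in the lowest of 10 deciles of genes by GC. In that decile of 1620 genes the median difference between the shCBX8-2 libraries was -0.55, against 0.22 in the highest decile, and in control and shCBX8-1 the lowest decile had medians of 0.02 and -0.03. EREG was at percentile 5.8 of its own decile. With an offset for GC, chosen after seeing the data, its shCBX8-2 value was 0.10 and did not pass.

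**Figure D3:**
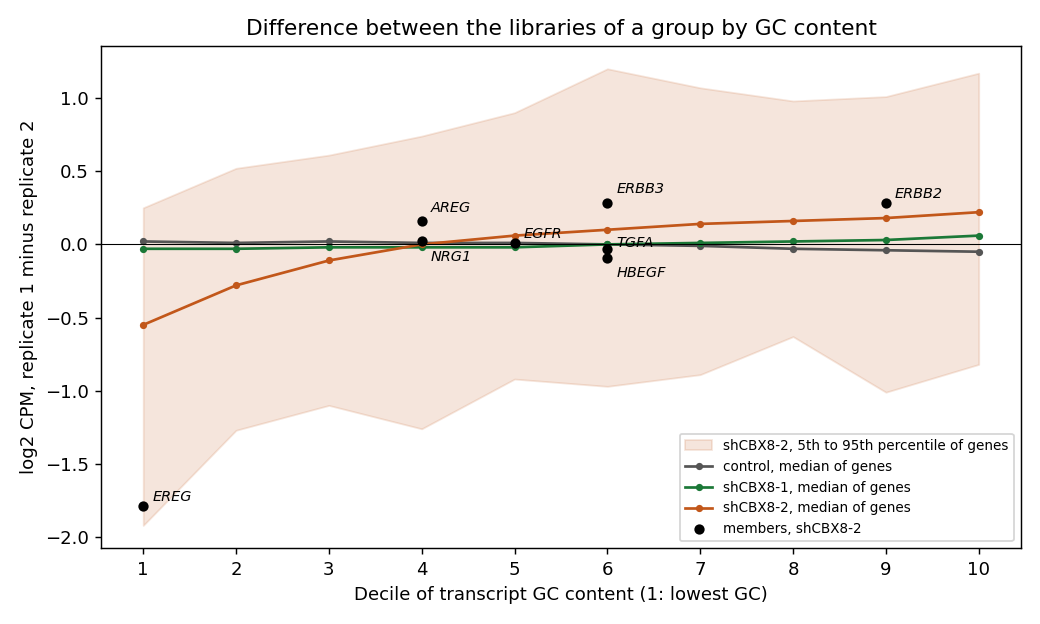
Log2 difference between the libraries of a group (replicate 1 minus 2), against the decile of transcript GC content: lines are medians of genes, the band spans the 5th to 95th percentile of genes in shCBX8-2, and points are the 8 members in shCBX8-2. In shCBX8-2 the medians run from -0.55 in the lowest decile to 0.22 in the highest, and EREG lies at -1.79.

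NRG1 (neuregulin 1, gene 3084, chromosome 8, 31639245 to 32774046), the ligand of ERBB3, differed between the shCBX8 groups. It measured 136 and 111 CPM in control, 189 and 171 CPM in shCBX8-1, and 92.8 and 91.5 CPM in shCBX8-2. The 3 groups did not overlap, with shCBX8-1 highest and shCBX8-2 lowest. The difference between the shCBX8 groups was -0.97 ± 0.11 (adjusted p = 0.00537), while 0.54 ± 0.11 in shCBX8-1 (0.0611) and -0.43 ± 0.11 in shCBX8-2 (0.0517) did not pass against control. The mean of both was 0.06 ± 0.10 (adjusted p = 0.78), and its sign turned without control replicate 2 (-0.0801, adjusted p = 0.790). The call between the groups ended without shCBX8-1 replicate 1 (0.0744) or 2 (0.0548). Without shCBX8-2 replicate 1 or 2, NRG1 passed against control in shCBX8-1 and in shCBX8-2. Those fits assume that the lone shCBX8-2 library varies like the other groups, and more genes of the whole series passed in them. With the replicate number as a block NRG1 passed in shCBX8-2 (-0.42, adjusted p = 0.0469). With a robust spread estimate, the DESeq2 Wald test or the GC offset, NRG1 was called higher in shCBX8-1 and lower in shCBX8-2. The robust fit called 1.98% of all genes higher in shCBX8-1 and 7.4% lower in shCBX8-2. With only the libraries compared NRG1 passed in shCBX8-1 and not in shCBX8-2. It passed in neither with DESeq2 size factors, without the filter on low counts or without repeated accessions.

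The table lists 23 NRG1 transcripts, of which 17 had counts and 8 made up at least 5% of the gene in some library. NM_013956, a beta1 isoform, had 1013 and 1052 counts in the shCBX8-1 libraries, 8.20 and 9.34% of the gene, and 0 in the other 4. It met the 5% rule only through the shCBX8-1 libraries, where it is high. Counts can be given wholly to 1 transcript or another within a group, as for TGFA below, so no fold is given. Without this transcript NRG1 measured 174 and 155 CPM in shCBX8-1, still above both controls. NM_013958, a beta3 isoform, had 34.2 and 27.2 CPM in control, 37.2 and 32.2 CPM in shCBX8-1, and 14.8 and 13.4 CPM in shCBX8-2. Its shCBX8-2 libraries were below all others, and its share of the gene was 24.4 to 25.1% in control and 14.6 to 15.9% in shCBX8-2. Tested as single transcripts, none of the member entries passed in any comparison.

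**Figure D4:**
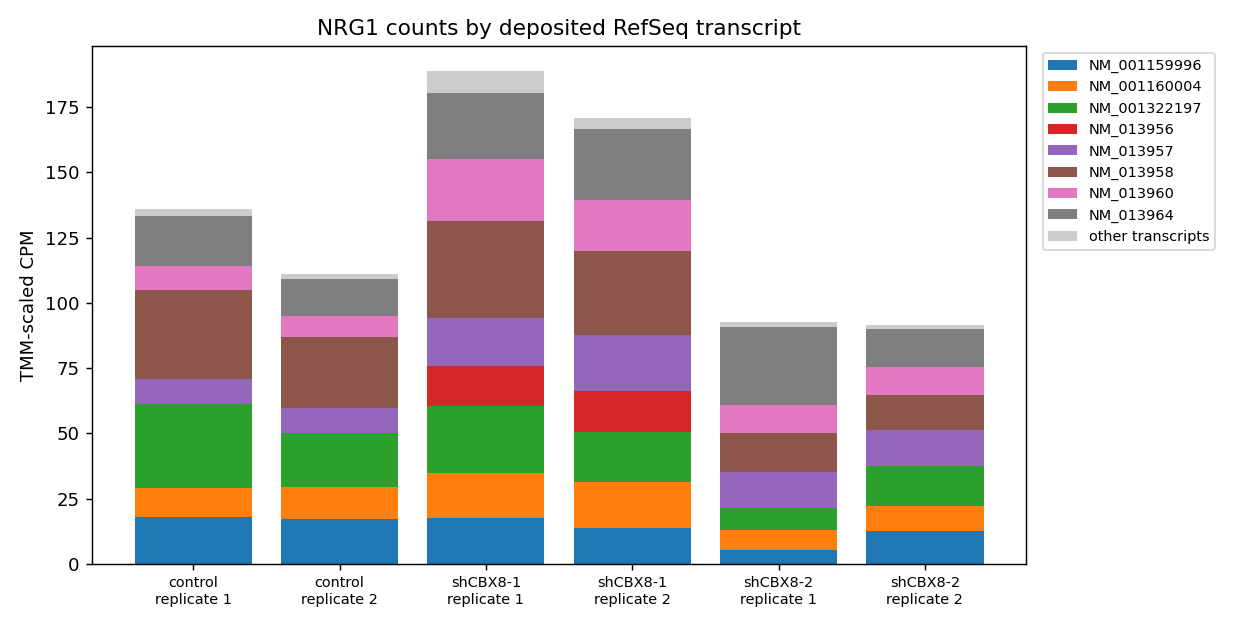
NRG1 level per library in CPM after TMM scaling, stacked by deposited transcript for those with at least 5% of the gene in some library and with the rest in grey. NM_013956 (red) is present in the shCBX8-1 libraries, at 15.5 and 15.9 CPM, and at 0 in the other 4.

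The split between transcripts varied within a group for NRG1, TGFA and ERBB2, so gene sums were used. For NRG1, NM_013964 held 32 and 16.2% in the shCBX8-2 libraries and NM_001322197 held 9.02 and 16.8%, so its transcript values are less certain than its sum. TGFA counts were nearly all given to NM_003236 in some libraries and to NM_001308158 in others of the same group, with 0 and 100% for the latter in the controls. For ERBB2, the non-coding NR_110535 held 50.2 and 0.0298% of the control counts, 48.4 and 47.5% of those of shCBX8-1, and 0.0260 and 1.32% of those of shCBX8-2. EGFR rested on NM_005228 (99.3 to 99.9%) and ERBB3 on NM_001982 (96.7 to 99.7%), and AREG, EREG and HBEGF have 1 listed transcript each.

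Levels can be compared between genes only per length, and only for the 5 members where 1 transcript dominates. In control, CPM per kilobase of transcript was 41.0 ± 0.689 for AREG, 15.1 ± 0.366 for EGFR, 10.7 ± 0.824 for EREG, 2.66 ± 0.319 for HBEGF and 1.77 ± 0.113 for ERBB3 (SD, n = 2). Neighbours in this order did not overlap between libraries. In shCBX8-1 EREG, at 20.9 ± 2.02, stood above EGFR at 15.2 ± 0.870, and in shCBX8-2 EGFR, at 20.6 ± 0.220, stood above EREG, whose libraries gave 4.67 and 16.2. AREG was the most abundant of the 5 per kilobase in all 3 groups, at 29.1 ± 0.103 in shCBX8-1 and 38.0 ± 3.03 in shCBX8-2.

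The genes closest in profile to each member were taken by the root mean square difference of log2 CPM over the 6 libraries, each gene centred on its mean, among 13654 genes. TGFA was closest to GALNT18 (0.0399), GCAT (0.117) and PLXDC2 (0.147), and HBEGF to CDK14 (0.0705), TNFRSF21 (0.0993) and ETS1 (0.106). HBEGF and TGFA were 0.163 apart, with 27 genes closer to HBEGF than TGFA was. NRG1 was closest to LHFPL6 (0.0503) and HOXC8 (0.0611), and EREG to MYBL1 (0.106), SLC16A7 (0.136) and DLEU2 (0.153). AREG had ZFYVE19 (0.0326), CLU (0.0357) and RAD54L2 (0.0441) nearest. For the receptors these were TUBGCP6 (0.0305), PRR12 (0.0350) and TAF12 (0.0365) for EGFR, KLC2 (0.0112), DMPK (0.0211) and E4F1 (0.0239) for ERBB2, and FCGRT (0.102), CTNNA1-AS1 (0.110) and TMEM221 (0.113) for ERBB3. These distances are a description of 6 libraries.

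Of 7 further members (ERBB4, EGF, BTC, EPGN, NRG2, NRG3 and NRG4), ERBB4, EPGN and NRG3 were at most 0.126 CPM and were not tested, and 0 of the other 4 passed in knockdown with edgeR or DESeq2 (before adjustment edgeR had 0 up and 1 down with p under 0.05). EGF, the founding ligand of the family, had 2.14 and 2.90 CPM in control, 2.62 and 2.67 CPM in shCBX8-1, and 0.898 and 1.22 CPM in shCBX8-2. Its shCBX8-2 libraries lay below all others, and it fell by 1.25 ± 0.30 log2 there (adjusted p = 0.0388). NRG2 and NRG4 measured 6.06 to 11.9 and 9.39 to 13.5 CPM. Between the shCBX8 groups EGF (-1.32 ± 0.30, adjusted p = 0.0402) and NRG2, another ligand of ERBB3 and ERBB4 named after its values were seen (-0.80 ± 0.15, 0.0255), were lower in shCBX8-2. These calls ended without control replicate 1 or 2 or shCBX8-1 replicate 1 or 2 (0.0822, 0.0859, 0.191 and 0.185 for EGF, and 0.0657, 0.0659, 0.136 and 0.142 for NRG2), and for EGF without shCBX8-2 replicate 1 (0.0672). Among 9 sheddases and their partners, 0 rose and 1 fell in knockdown with edgeR (3.31% and 3.48% of all genes), beside 2 and 1 before adjustment (p under 0.05); DESeq2 called 1 and 1. This was ADAM19, a membrane-anchored metalloprotease, at 7.89 and 8.52 CPM in control, 4.72 and 5.32 CPM in shCBX8-1, and 2.40 and 3.35 CPM in shCBX8-2 (-1.11 ± 0.18, adjusted p = 0.0181). ADAM12, another metalloprotease, rose in shCBX8-2 by 1.61 ± 0.37 (adjusted p = 0.0336). ADAM17 did not pass in any comparison.

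Among 29 adaptors and relays, 0 rose and 1 fell in knockdown with edgeR (3.31% and 3.48% of all genes), beside 1 and 4 before adjustment (p under 0.05); DESeq2 called 0 and 2, and the median log2 fold change was -0.03. STAT3, a transcription factor that receptor kinases activate, measured 267 and 251 CPM in control, 257 and 242 CPM in shCBX8-1, and 186 and 173 CPM in shCBX8-2. It fell by 0.29 ± 0.07 log2 in knockdown (adjusted p = 0.0477), with -0.05 ± 0.08 in shCBX8-1 (0.802) and -0.53 ± 0.08 in shCBX8-2 (0.00827), and the shCBX8 groups differed (-0.48 ± 0.08, 0.0143). In shCBX8-2 3 fell, beside 6.64% of all genes: STAT3, the RAS GTPase NRAS (-1.33 ± 0.28, adjusted p = 0.0258) and GAB2, a docking protein named here after its values were seen (-0.61 ± 0.14, adjusted p = 0.0352). NRAS measured 58.8 and 57.4 CPM in control, and its shCBX8-2 libraries lay far apart, at 15.5 and 30.6 CPM. The NRAS call there ended with a robust spread estimate, and those of NRAS and GAB2 ended without the filter on low counts. Of 20 tested inhibitors and turnover factors, 0 rose and 1 fell in knockdown with edgeR (3.31% and 3.48% of all genes), beside 0 and 7 before adjustment (p under 0.05); DESeq2 called 0 and 3. In shCBX8-2 4 fell, beside 6.64% of all genes. PTPRJ, a receptor phosphatase, measured 130 and 127 CPM in control, 133 and 126 CPM in shCBX8-1, and 71.2 and 70.1 CPM in shCBX8-2. It fell in shCBX8-2 (-0.86 ± 0.07, adjusted p = 0.00214), beside 0.01 ± 0.07 in shCBX8-1 (0.978), and the shCBX8 groups differed (-0.87 ± 0.07, 0.00173). SH3KBP1, an adaptor in receptor endocytosis, fell by 0.53 ± 0.09 in shCBX8-2 (adjusted p = 0.0114). The others that fell there, named after their values were seen, were SOCS2, a suppressor of cytokine signalling (-0.96 ± 0.16, adjusted p = 0.014), and LRIG1, a negative regulator of EGFR (-0.50 ± 0.12, 0.0435).

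Of 17 genes often used as a readout of ERK output, 2 rose and 1 fell in knockdown with edgeR (3.31% and 3.48% of all genes), with a median of -0.10. Before adjustment 5 were up and 6 down with p under 0.05, and DESeq2 called 5 and 1. FOSL1, an AP-1 subunit, rose from 41.0 and 37.8 CPM in control to 93.0 and 77.9 CPM in shCBX8-1 and 61.8 and 63.0 CPM in shCBX8-2 (0.89 ± 0.10, adjusted p = 0.00797). CCND1, cyclin D1, rose by 0.49 ± 0.09 (adjusted p = 0.0244), with 275 and 268 CPM in control, 468 and 408 CPM in shCBX8-1, and 309 and 355 CPM in shCBX8-2. For both, all knockdown libraries were above control, and the shCBX8 groups differed by -0.45 ± 0.11 for FOSL1 (adjusted p = 0.0461) and -0.40 ± 0.10 for CCND1 (0.0495). IER3, an immediate early gene, fell by 0.48 ± 0.07 (adjusted p = 0.0177). In shCBX8-2 3 genes rose (DUSP4, FOSL1 and PHLDA1) and 3 fell (DUSP5, IER3 and SPRED3), beside 6.03% and 6.64% of all genes. Of these, PHLDA1 and DUSP5 are named after their values were seen. DUSP4, an ERK phosphatase, rose by 0.53 ± 0.08 (adjusted p = 0.00808), and SPRED3, an inhibitor of the route, fell by 1.63 ± 0.26 (0.0113). The list did not move as 1 group.

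Of 30 tested receptor tyrosine kinases outside the family, 3 rose and 2 fell in knockdown with edgeR (3.31% and 3.48% of all genes), with a median of -0.18. Before adjustment 4 were up and 6 down with p under 0.05, and DESeq2 called 4 and 3. MET, the hepatocyte growth factor receptor, rose by 0.41 ± 0.08 (adjusted p = 0.0277), from 180 and 172 CPM in control to 245 and 250 CPM in shCBX8-1 and 206 and 239 CPM in shCBX8-2. AXL, the GAS6 receptor, rose by 0.39 ± 0.06 (adjusted p = 0.0201), and MST1R, a relative of MET, by 0.50 ± 0.10 (0.0365). MST1R was higher in shCBX8-2 alone, with 17.6 and 20.1 CPM in control, 19.7 and 19.0 CPM in shCBX8-1, and 37.3 and 36.1 CPM in shCBX8-2, and the shCBX8 groups differed by 0.92 ± 0.12 (adjusted p = 0.00704). FGFR4, a fibroblast growth factor receptor, fell by 0.66 ± 0.12 (adjusted p = 0.0277) and NTRK3, a neurotrophin receptor, by 1.20 ± 0.23 (0.0293). FGFR4 was -0.30 ± 0.14 in shCBX8-1 (0.345) and -1.02 ± 0.15 in shCBX8-2 (0.00823), and the shCBX8 groups differed (-0.71 ± 0.15, 0.0298). NTRK3 was low, at 1.24 to 3.47 CPM, with -1.22 ± 0.28 in shCBX8-1 (0.079) and -1.19 ± 0.28 in shCBX8-2 (0.0364). Over the 6 lists together, 5 of 109 tested genes rose and 6 fell in knockdown, close to the 3.31% and 3.48% of all genes. Without control replicate 1 or 2, or shCBX8-1 replicate 1 or 2, 0 passed with edgeR (before adjustment, 7 up and 9 down, 12 and 10, 11 and 12, and 11 and 17 had p under 0.05), and the adjusted p of the named genes was 0.118 to 0.262, 0.151 to 0.308, 0.0618 to 0.144 and 0.0553 to 0.140. Without shCBX8-2 replicate 1 the lists had 11 genes higher and 21 lower, and without replicate 2 they had 15 and 24. With the replicate number as a block 2 rose and 4 fell, and with the 4 knockdown libraries as 1 group 0 passed (before adjustment, 6 up and 13 down had p under 0.05). In shCBX8-2 against control 6 of the 109 rose and 15 fell, beside 6.03% and 6.64% of all genes. Without control replicate 1 or 2 these were 0 and 1 each time, without shCBX8-1 replicate 1 or 2 they were 3 and 6, and without shCBX8-2 replicate 1 or 2 they were 9 and 21, and 19 and 33. The adjusted p of the named genes in shCBX8-2 was 0.0444 to 0.223 without control replicate 1 and 0.0419 to 0.313 without control replicate 2.

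**Figure D5:**
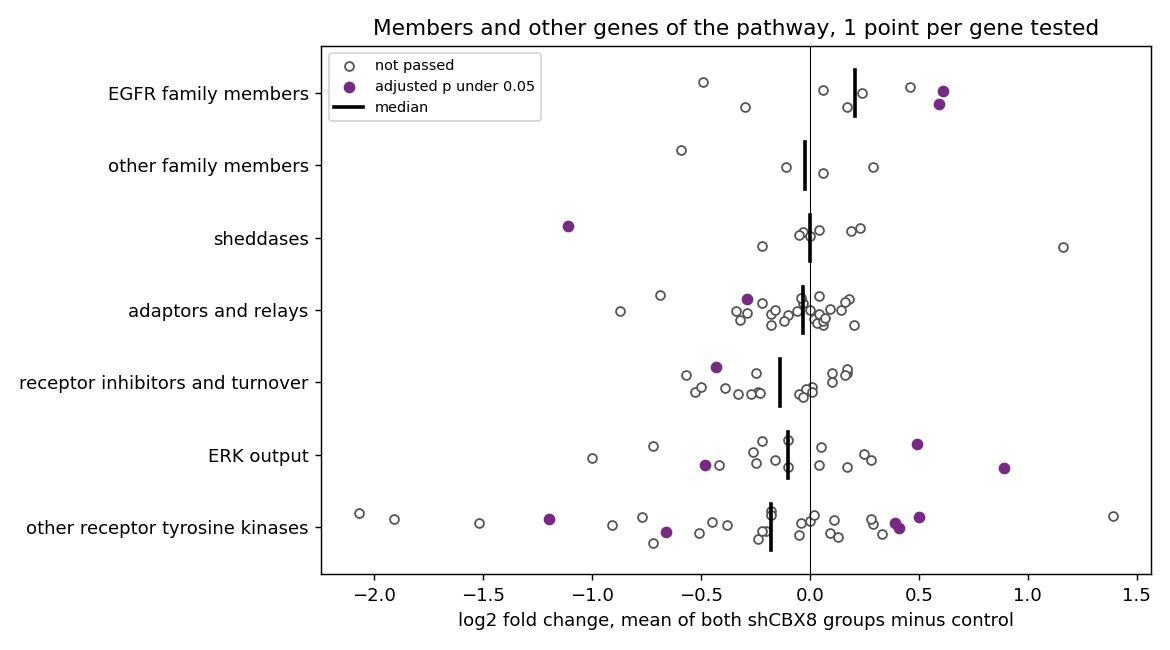
Log2 fold changes in knockdown against control for the tested genes of the 8 members and of the 6 further lists, 1 point per gene, with filled points for adjusted p below 0.05 and a line at the median. Medians lie between -0.18 and 0.20, and the calls within a list go both ways for ERK output and for other receptor tyrosine kinases.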

How the data were processed

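The deposited table gives estimated counts per RefSeq transcript, all whole numbers, for 6 libraries. The submitters' processing notes name HISAT2 2.2.1, StringTie 2.2.1, DESeq2 1.34.0 and hg38, without their roles; annotation and counting step: not given in the sources used here. Of 84787 transcripts 99.45% were matched to a gene (RefSeq table of GRCh38.p14, then GENCODE), and counts were summed per gene. Testing used edgeR 4.0.16 under R 4.3.3: filterByExpr (minimum count 10, minimum total 15), TMM scaling, and a quasi-likelihood fit with 3 groups on all 6 libraries (3 residual degrees of freedom), with two-sided p-values adjusted by Benjamini-Hochberg over 17115 genes and a threshold of 0.05. The code was tested on simulated data. DESeq2 1.42.0 served as an alternative. Transcript lengths and GC content came from GENCODE transcripts matched by accession, and gene positions and promoters from RefSeq (GRCh38.p14). The members and lists were chosen with earlier results of these data known. Named were all members and, per list, up to 4 genes with the smallest p that passed in knockdown and up to 2 in each shCBX8 group, the 3 nearest profiles (1 is not reported here), and tested genes within 500 kb of AREG or EREG. Other alternatives were DESeq2 size factors, no filter, each library left out, a replicate block, 1 knockdown group, only the libraries compared, a robust spread, no repeated accessions, single transcripts and, added later, a GC offset.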

Additional observations from a re-analysis of the deposited data

Results flagged for a closer look

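For 4 members the effect against control differed between the shCBX8 groups by the test of the difference itself (edgeR quasi-likelihood test, Benjamini-Hochberg). The log2 difference of shCBX8-2 minus shCBX8-1 was 0.45 for EGFR (adjusted p = 0.0144), which was higher in both shCBX8-2 libraries than in either shCBX8-1 library. It was -0.82 for HBEGF (adjusted p = 0.0215), -1.20 for TGFA (adjusted p = 0.00587) and -0.97 for NRG1 (adjusted p = 0.00537), each lower in both shCBX8-2 libraries than in either shCBX8-1 library. CBX8 itself also differed, by 1.02 (adjusted p = 0.0115). Each group holds 2 libraries, and hairpin, culture and library cannot be told apart.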

How the results depend on the processing

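The number of genes called in knockdown, shCBX8-1, shCBX8-2 and shCBX8-2 against shCBX8-1 was 1162, 423, 2169 and 1681. It was 2441, 1477, 3560 and 2958 with the DESeq2 Wald test and 2656, 1426, 3832 and 3116 with a GC offset, which was chosen after seeing the data. With a replicate block it was 696, 173, 1684 and 1082, and with single transcripts in edgeR 0, 0, 0 and 1 (3505, 2788, 4048 and 3841 at an unadjusted p under 0.05). Fitting only the libraries compared gave 2426 in shCBX8-1, 995 in shCBX8-2 and 638 between them, and the 4 knockdown libraries as 1 group gave 27. Leaving out 1 library gave 1 to 4467, 0 to 2327, 139 to 5515 and 126 to 5104; at the lowest, 0 in shCBX8-1 with edgeR, 1698 to 1962 genes had an unadjusted p under 0.05. Over all genes tested no pairing by replicate number was seen. Same-numbered deviations correlated at -0.00992 (control and shCBX8-1), -0.0171 (control and shCBX8-2) and 0.0164 (both shCBX8 groups). A deviation shared in only part of the genes could be missed, so this does not settle whether the numbers pair the samples. None of the member calls reversed, while the following values turned sign. With DESeq2 size factors and the Wald test TGFA in shCBX8-2 was 0.0131 and 0.0132, and with the GC offset EREG there was 0.10. With the most abundant transcript in place of the gene, ERBB2 (NM_004448) in shCBX8-1 was -0.23 ± 0.29 (SE). TGFA (NM_003236) in shCBX8-2 was 0.79 ± 2.74, and NRG1 (NM_013958) in knockdown was -0.48 ± 0.16. Other transcripts went the other way (NR_110535 1.12 ± 2.71, NM_001308158 -3.87 ± 4.37 and NM_013957 0.74 ± 0.17). In knockdown TGFA NM_001308158 was -1.35 ± 3.25, against 0.59 for the gene. These ERBB2 and TGFA transcript values were smaller than their SE, so their signs are not settled. Among called list genes STAT3 in knockdown was 0.0633 and NTRK3 was 0.0337 in knockdown and 0.0104 in shCBX8-2. Leaving out 1 library, values ran from -0.0253 to 0.0781 for EGFR in shCBX8-1, from -0.0819 to 0.19 for ERBB2 and from -0.59 to 0.18 for ERBB3 between the shCBX8 groups, from -0.12 to 0.79 for EREG in knockdown and from -1.20 to 0.61 in shCBX8-2, from -0.0778 to 0.0459 for TGFA in shCBX8-2, and from -0.0801 to 0.21 for NRG1 in knockdown. The causes were not tested. The lowest count of a member in a library was 331 (TGFA), and each group holds 2 libraries.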

Other observations

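AREG and EREG lie on chromosome 4 next to a cluster of CXC chemokine genes. Counting AREG and EREG themselves, 27 genes start within 500 kb of either, and 10 of these were tested. Of the 10, 4 fell in knockdown against control (edgeR quasi-likelihood test, Benjamini-Hochberg), beside 3.48% of all genes. The neutrophil-attracting chemokines CXCL1, CXCL2 and CXCL3 fell by 0.73 ± 0.10, 0.70 ± 0.12 and 0.82 ± 0.16 log2 (adjusted p = 0.0122, 0.0224 and 0.034), and PARM1, a mucin-like membrane protein, fell by 0.74 ± 0.15 (adjusted p = 0.0354). CXCL1, CXCL2 and CXCL3 are close paralogs, so reads may be shared between them. In the same comparison AREG was -0.30 ± 0.08 (adjusted p = 0.0757), EREG 0.46 ± 0.42 (0.574), CXCL5 -0.38 ± 0.21 (0.348), BTC -0.11 ± 0.27 (0.863), MTHFD2L 0.14 ± 0.23 (0.78) and PPBP 0.27 ± 0.50 (0.805), and none of these passed. The calls ended without control replicate 1 or 2 or shCBX8-1 replicate 1 or 2: adjusted p was 0.15, 0.198, 0.0897 and 0.095 for CXCL1, 0.157, 0.242, 0.0897 and 0.107 for CXCL2, 0.15, 0.303, 0.132 and 0.121 for CXCL3, and 0.157, 0.309, 0.139 and 0.109 for PARM1. With the replicate number as a block, those of CXCL3 (0.0644) and PARM1 (0.0631) ended.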
